A study of Homo sapiens with 6 samples.

Results

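The 9 genes that carry carbamoyl phosphate synthesis through to CTP were compared between vehicle-treated MDA-MB-231 cells and cells given BRL-50481, an inhibitor of the phosphodiesterase PDE7A. They were CAD, DHODH, UMPS, CMPK1, NME1, NME3, NME4, CTPS1 and CTPS2, taken by symbol from a table of 15651 genes and followed in pathway order. All 9 passed the filter on low values, and 15246 genes passed in all. MDA-MB-231 is an established human breast cancer line that lacks estrogen and progesterone receptors and HER2 amplification. Total RNA was sequenced from 3 biological replicates of cells given the vehicle DMSO and from 3 of cells given BRL-50481. Per the treatment text of the labels, the compound was used at 50 µM for 72 h, while the treatment tag of the same samples gives 5 µM and 48 h, so that the dose and time are uncertain. Both groups were cells of 1 line, without any genetic change, and each treated library had the same dose.

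Cells make pyrimidine nucleotides either from small molecules (the de novo route) or from recycled nucleosides (salvage). CAD, a cytosolic protein that holds 3 enzyme activities, joins glutamine, bicarbonate and aspartate into dihydroorotate. DHODH, on the inner mitochondrial membrane, oxidizes dihydroorotate to orotate and passes the electrons to ubiquinone. UMPS, which holds both of the activities that follow, turns orotate into UMP. CMPK1 phosphorylates UMP to UDP, nucleoside diphosphate kinases of the NME family make UTP, and the CTP synthases CTPS1 and CTPS2 aminate UTP to CTP with glutamine as the nitrogen donor. Proliferating tumor cells are known to draw on this route for RNA, DNA, phospholipid and sugar nucleotide synthesis.

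The stretch of 250 bases before the start site is shown for the 3 genes that make UMP, for the gene with the largest decrease (NME1) and for the gene that rose (CTPS1), so that the starts of genes that moved in both directions can be set side by side. The sequences are those of RefSeq on GRCh38.p14, written 5′ to 3′ on the strand of the gene, and all 9 genes were matched. Capitals mark matches, on either strand, to an E-box (CACGTG), to a cyclic AMP response element (TGACGTCA), to a GC box (GGGCGG), to the CCAAT motif or to an ETS core (CCGGAA). The windows are chr2:27217119-27217368 (plus strand) for CAD, chr16:72008494-72008743 (plus strand) for DHODH, chr3:124730202-124730451 (plus strand) for UMPS, chr17:51153309-51153558 (plus strand) for NME1 and chr1:40979446-40979695 (plus strand) for CTPS1.
CAD: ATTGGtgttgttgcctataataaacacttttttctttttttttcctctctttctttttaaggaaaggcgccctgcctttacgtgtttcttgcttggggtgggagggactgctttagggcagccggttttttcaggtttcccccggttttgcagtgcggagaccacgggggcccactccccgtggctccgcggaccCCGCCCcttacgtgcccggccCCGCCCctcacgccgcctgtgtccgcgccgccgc
DHODH: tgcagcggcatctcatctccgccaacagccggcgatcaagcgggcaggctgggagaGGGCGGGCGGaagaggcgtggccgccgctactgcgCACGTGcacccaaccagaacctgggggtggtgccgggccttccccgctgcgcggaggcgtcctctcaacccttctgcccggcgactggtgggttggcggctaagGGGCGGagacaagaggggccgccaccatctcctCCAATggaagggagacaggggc
UMPS: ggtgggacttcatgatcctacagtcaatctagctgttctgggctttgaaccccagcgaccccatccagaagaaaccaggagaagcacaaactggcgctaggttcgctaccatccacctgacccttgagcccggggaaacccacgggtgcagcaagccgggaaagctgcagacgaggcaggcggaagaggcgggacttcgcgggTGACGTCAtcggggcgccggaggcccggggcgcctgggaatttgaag
NME1: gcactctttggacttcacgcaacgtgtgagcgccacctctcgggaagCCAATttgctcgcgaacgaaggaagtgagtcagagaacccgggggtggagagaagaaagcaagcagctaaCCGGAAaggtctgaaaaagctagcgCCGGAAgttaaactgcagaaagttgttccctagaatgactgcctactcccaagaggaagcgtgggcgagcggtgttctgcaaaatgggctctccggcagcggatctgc
CTPS1: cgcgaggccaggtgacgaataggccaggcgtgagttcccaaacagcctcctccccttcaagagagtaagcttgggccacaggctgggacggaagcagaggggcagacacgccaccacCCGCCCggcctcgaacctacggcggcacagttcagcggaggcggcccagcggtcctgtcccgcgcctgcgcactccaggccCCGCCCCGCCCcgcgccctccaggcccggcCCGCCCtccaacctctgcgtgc

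The cyclic AMP response element, the palindrome that factors of the CREB family are known to bind, was found before UMPS alone among the 9 genes, with its first base 47 bases before the start. It was found in 1.65% of all 35116 promoters of the same length and in 2.76% of those of the genes tested. For each motif, the share among genes tested covers the 10958 that had a promoter under the same symbol, with the first listed promoter of each. The E-box, a sequence known to be bound by MYC with MAX, was found before DHODH alone, 159 bases before the start, and in 6.34% of all promoters (8.67% of those of the genes tested). Matches to the GC box, which SP1-type factors are known to bind, stood before CAD, DHODH, NME3, NME4 and CTPS1 and in 42.6% of all promoters (65.6% of those of the genes tested). The CCAAT motif stood before CAD, DHODH, NME1 and NME4 and in 32% of all promoters (34.9% of those of the genes tested). The ETS core stood before NME1 and NME3 and in 14.5% of all promoters (23.8% of those of the genes tested). None of the 5 motifs was found before CMPK1 or CTPS2. Matches to the GC box overlapped with each other in DHODH, where they began 194 and 190 bases before the start. The same held in CTPS1 (52 and 47 bases), NME3 (29 and 24 bases) and NME4 (58 and 54 bases). A match is a description of the letters in this window, and binding was not measured. Bases after the start site were not searched.

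The libraries held 30750573 to 33446984 reads in genes. The mesenchymal markers VIM, CD44, AXL, CAV1 and ANXA1 were all present, as is known for this line, and their summed normalized count was 154527 to 161756 with DMSO, while it was 213322 to 214618 with BRL-50481. PGR was at 0 to 7.75 normalized counts, ERBB2 was at 1606 to 1979, and ESR1 has no row in the table used here. The luminal markers EPCAM, CDH1 and GATA3 summed to 956 to 1035 with DMSO and to between 1038 and 1075 with BRL-50481. EPCAM, which carried this sum, changed by −0.16 (adjusted p = 0.0468, and up to 0.115 when 1 library was left out), while CDH1 rose from 38.2 to 99.8 (log2 fold change 1.39, adjusted p = 4.28e-05) and GATA3 rose by 0.57 (adjusted p = 0.00234). Of the markers of other cells, PECAM1 was at 325 to 396 with DMSO and between 460.4 and 537 with BRL-50481, and PTPRC, CD3E, ALB and MS4A1 have no row. The part of these marker changes in the results was not tested. PDE7A, the phosphodiesterase that the compound inhibits, was at 406, 405 and 409 normalized counts in DMSO and at 341, 292 and 261 in BRL-50481 libraries (log2 fold change −0.45, adjusted p = 0.00199). Its mRNA level does not measure inhibition of the enzyme. DMSO replicate 1 stood apart from the other DMSO libraries: chi-square per degree of freedom over genes, which is near 1 where counting error is the only difference, was 22.1 and 13.7 against replicate 1 and 3.99 between the other two. It was 2.63 to 3.53 between BRL-50481 libraries. Results are therefore also given without DMSO replicate 1.

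Mean mRNA levels of the 7 genes up to UTP were lower in BRL-50481-treated cells, and those of CTPS1 and CTPS2 were higher. CAD, DHODH, UMPS, CMPK1, NME1, NME3 and NME4 fell, CTPS1 rose, and CTPS2 did not pass the test (7 lower, 1 higher and 1 not called, limma adjusted p below 0.05). The calls of CMPK1 and NME3 were each lost under some alternatives, as given below. Outside the 9 genes, the NME family member NME7 was called higher and NME6 was not called. Among all genes tested, 29.8% were called lower and 28.9% higher, so that a call in itself was common in this comparison. The median log2 fold change of the 9 genes was −0.48, beside 0.0148 over all genes tested. No member changed by more than 1 on the log2 scale in addition to its call, a size that 8.04% of all genes reached. The groups did not overlap for 8 of the 9 genes, as was also the case for 64.2% of all genes. Without DMSO replicate 1, the 7 genes remained lower (log2 fold changes −1.0 to −0.11) and CTPS2 was called higher beside CTPS1. Normalized counts are relative to all RNA in a library, so that a lower level in every cell, a lower share of cells with a high level and a change in total RNA per cell cannot be told apart.

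**Figure D1:**
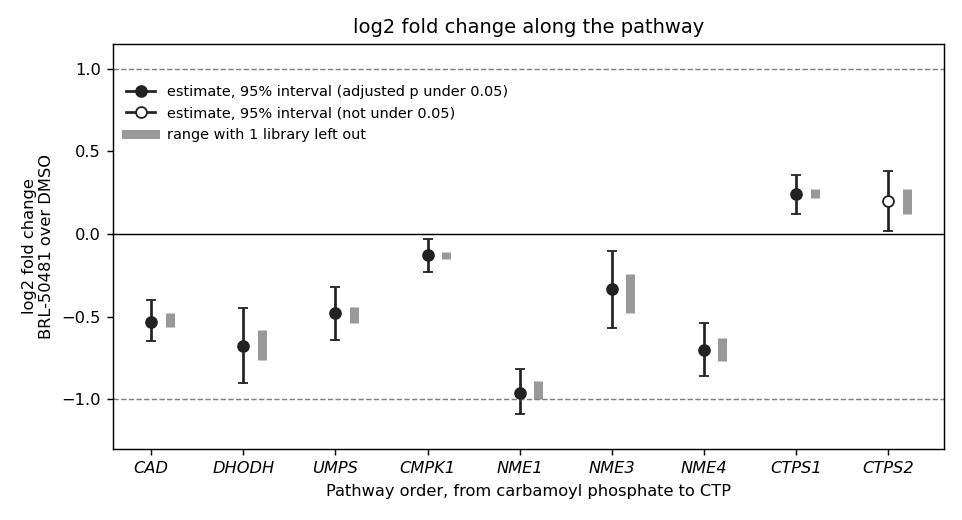
Log2 fold change (BRL-50481 minus DMSO, on the log2 scale of normalized count plus 1) of the 9 genes in pathway order, with 95% confidence intervals from limma over 3 libraries per group. The intervals of the 7 genes from CAD to NME4 lie below 0, and those of CTPS1 and CTPS2 lie above 0, although CTPS2 has an adjusted p of 0.0547 over all genes.

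CAD (chr2:27217369-27243943, hg38, plus strand, 44 exons) encodes the enzyme of the rate-limiting entry to the route. CAD had 5687, 5051 and 5186 normalized counts in the DMSO libraries and 3565, 3874 and 3607 in the BRL-50481 libraries. All 3 treated libraries lay below all 3 vehicle libraries, and the gap between the groups was wider than the range of either group. The mean was 5308 ± 335 with DMSO and 3682 ± 168 with BRL-50481 (SD, n = 3), 69.4% of the DMSO level. This is a log2 fold change of −0.53 (95% interval −0.65 to −0.40, SE 0.0573, adjusted p = 4.8e-06), and without DMSO replicate 1 it was −0.48. Each value rested on at least 3541 reads. With that depth, counting error alone gives a coefficient of variation of 1.4% in DMSO, beside the 6.3% observed. The spread between DMSO libraries was thus larger than the counting error. DMSO replicate 1, the library that stood apart, had the highest value (5687).

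DHODH (chr16:72008588-72027664, hg38, plus strand, 9 exons) was the least abundant of the 9 mRNAs per length. The DMSO libraries held 357, 368 and 382 normalized counts of it, and the BRL-50481 libraries held 258, 236 and 202. The groups were separate, and the BRL-50481 libraries were spread more widely (coefficient of variation 12.2% against 3.4%). The mean fell from 369 ± 12.4 to 232 ± 28.3 (SD, n = 3), which is 62.8% of the DMSO level. The log2 fold change was −0.68 (95% interval −0.90 to −0.45, SE 0.105, adjusted p = 0.000109), and it was −0.76 to −0.58 when any 1 library was left out. Each value rested on 208 to 376 reads, for which counting error alone gives a coefficient of variation of 5.2% in DMSO and 6.6% in BRL-50481.

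UMPS (chr3:124730433-124749273, hg38, plus strand, 6 exons) completes UMP. Its normalized count was 1064, 1147 and 1079 in DMSO and 765, 742 and 853 in BRL-50481 libraries. The highest treated library, BRL-50481 replicate 3, was still below the lowest vehicle library. The mean was 1096.5 ± 44.5 with DMSO and 787 ± 58.4 with BRL-50481 (SD, n = 3). UMPS thus had a log2 fold change of −0.48 (95% interval −0.64 to −0.32, SE 0.0718, adjusted p = 7.75e-05). Leaving out any 1 library gave −0.54 to −0.44.

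**Figure D2:**
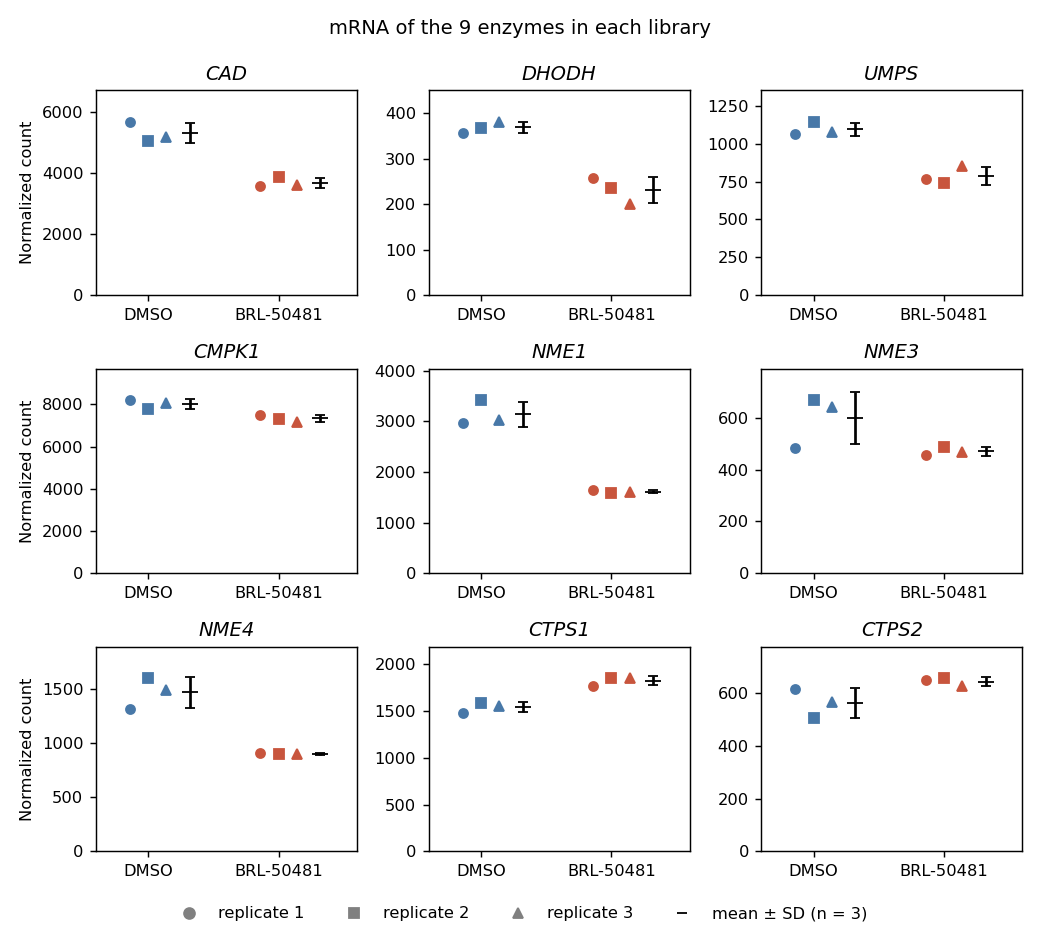
Normalized count of each of the 9 genes in each of the 6 libraries (points), with the group mean and SD (n = 3), on a separate vertical axis for each gene. The groups are separate in 8 panels, and in the NME3 panel DMSO replicate 1 (484) lies below BRL-50481 replicate 2 (488.5).

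The 95% intervals of the 3 genes of the steps to UMP overlapped, with log2 fold changes of −0.68 to −0.48. Within each library, the ratio of UMPS to CAD does not depend on how libraries are scaled. On the log2 scale it was −2.42, −2.14 and −2.26 in DMSO and −2.22, −2.38 and −2.08 in BRL-50481 libraries. The groups were interleaved, with a difference of 0.05 (p = 0.7, exact two-sided permutation test). The log2 ratio of DHODH to CAD was −3.99, −3.77 and −3.76 in DMSO and −3.78, −4.03 and −4.15 in BRL-50481 libraries, a difference of −0.15 that also overlapped (p = 0.2, exact two-sided permutation test). With 3 against 3 libraries, the smallest p that this test allows is 0.1. A shift of DHODH or UMPS relative to CAD, of any size, could therefore not have passed 0.05.

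CMPK1 (chr1:47333790-47394866, hg38, plus strand, 6 exons), the kinase for UMP and CMP, showed the smallest decrease. Its normalized count was 8215.5, 7772 and 8044 in DMSO and 7517, 7323 and 7160.1 in BRL-50481 libraries. The groups were separate, although the lowest DMSO and the highest BRL-50481 library lay close together. The mean was 8010.5 ± 224 with DMSO and 7333 ± 179 with BRL-50481 (SD, n = 3), 91.5% of the DMSO level. The log2 fold change was −0.13 (95% interval −0.23 to −0.03, SE 0.0458, adjusted p = 0.0289). The call was lost without DMSO replicate 3, BRL-50481 replicate 2 or BRL-50481 replicate 3 (adjusted p = 0.0939, 0.083 and 0.139).

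NME1 (chr17:51153559-51162428, hg38, plus strand, 5 exons), the cytosolic nucleoside diphosphate kinase also known as a metastasis suppressor, had the largest change of the 9 genes. Its normalized count was 2969, 3424 and 3030 in DMSO and 1644, 1586 and 1611 in BRL-50481 libraries. The treated libraries lay close together, and each was far below every vehicle library. The mean was 3141 ± 247 with DMSO and 1614 ± 28.9 with BRL-50481 (SD, n = 3), 51.4% of the DMSO level. The log2 fold change was −0.96 (95% interval −1.09 to −0.82, SE 0.0617, adjusted p = 5.44e-08), and 3.8% of all genes tested had a lower one. The level of NME1 is uncertain because 47.0% of the bases of its transcript are shared with the readthrough gene NME1-NME2. Reads in shared bases of overlapping genes are not assigned by default htseq-count, so that the counts may leave out part of its reads. How this bears on the fold change was not tested.

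NME4 (chr16:396725-410367, hg38, plus strand, 5 exons) encodes the mitochondrial nucleoside diphosphate kinase. NME4 had a normalized count of 1311, 1597 and 1485 in DMSO and 909, 893 and 898 in BRL-50481 libraries. The groups were far apart, and the treated libraries varied by less than counting error alone would give on average (0.9% against 3.3%). The mean was 1464 ± 144 with DMSO and 900.0 ± 8.09 with BRL-50481 (SD, n = 3). This is a log2 fold change of −0.70 (95% interval −0.86 to −0.54, SE 0.0738, adjusted p = 3.83e-06). Over all its annotated transcripts, 15.6% of the exonic bases of NME4 are shared with DECR2, and its canonical transcript shares none.

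NME3 (chr16:1770320-1771561, hg38, minus strand, 5 exons), a kinase of the same family found at the mitochondrial outer membrane, was the member whose groups overlapped. NME3 had a normalized count of 484, 669 and 643 in DMSO and 455, 488.5 and 469 in BRL-50481 libraries. This was because DMSO replicate 1 lay among the treated libraries (p = 0.2, exact two-sided permutation test). The mean was 599 ± 99.9 with DMSO and 471 ± 16.8 with BRL-50481 (SD, n = 3). The log2 fold change was −0.33 (95% interval −0.57 to −0.10, SE 0.109, adjusted p = 0.0189). It was −0.48 without DMSO replicate 1 (adjusted p = 1.63e-06) and −0.20 after a correction for transcript length and GC content, and the call was lost without DMSO replicate 2 (−0.24, adjusted p = 0.0707), DMSO replicate 3 (adjusted p = 0.0813), BRL-50481 replicate 1 (adjusted p = 0.0758) or BRL-50481 replicate 3 (adjusted p = 0.0511).

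The decrease was unequal among the nucleoside diphosphate kinases. NME1 made up 63.9%, 61.7% and 60.3% of the summed level per kilobase of NME1, NME3 and NME4 in DMSO libraries and 56.1%, 54.8% and 55.5% in BRL-50481 libraries. The share of NME1 was lower in each treated library than in every vehicle library. It went from 62.0% ± 1.84 to 55.5% ± 0.643 (SD, n = 3), a difference of −6.51 percentage points (p = 0.1, the smallest p that the exact two-sided permutation test allows). With the unshared bases of NME1 as its length, the share went from 75.4% ± 1.44 to 70.1% ± 0.545. Of the other kinases of these steps, NME7, which is known as a component of the gamma-tubulin ring complex, rose from 1523 ± 68.6 to 1748 ± 43.5 normalized counts (log2 fold change 0.20, SE 0.058, adjusted p = 0.00968, but 0.0563 without BRL-50481 replicate 3). NME6 was at 859 in DMSO and 879 in BRL-50481 (adjusted p = 0.697), and NME5 was at 5.64 and 10.98 (adjusted p = 0.123). NME2 was at 8.93, 12.73 and 22.47 in DMSO and at 11.07, 14.10 and 14.54 in BRL-50481 libraries, a level that cannot be read as the amount of its mRNA because 87.4% of the bases of its transcript are shared with NME1-NME2. NME1-NME2, NME8, NME9 and CMPK2 have no row in the table used here.

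CTPS1 (chr1:40979300-41012565, hg38, plus strand, 19 exons), the CTP synthase known to be needed for lymphocyte proliferation, was the member that rose. Its normalized count was 1483, 1588 and 1553 in DMSO and 1768, 1852 and 1851 in BRL-50481 libraries. Every treated library lay above every vehicle library. The mean was 1541 ± 53.2 with DMSO and 1824 ± 48.5 with BRL-50481 (SD, n = 3), 118.3% of the DMSO level. CTPS1 thus had a log2 fold change of 0.24 (95% interval 0.12 to 0.36, SE 0.0564, adjusted p = 0.00234), and it was 0.22 to 0.27 when any 1 library was left out.

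CTPS2 (chrX:16587999-16712936, hg38, minus strand, 19 exons), the second CTP synthase, had a normalized count of 616, 504 and 567 in DMSO and 649, 658 and 626 in BRL-50481 libraries. The groups did not overlap, although the highest DMSO library lay just below the lowest BRL-50481 library. The mean was 562.5 ± 56.0 with DMSO and 644 ± 16.4 with BRL-50481 (SD, n = 3). The log2 fold change of 0.20 (95% interval 0.02 to 0.38, SE 0.0837) missed the threshold (adjusted p = 0.0547). It was 0.27 without DMSO replicate 1 (adjusted p = 0.00278) and 0.12 without DMSO replicate 2 (adjusted p = 0.21). Other scalings, namely quantile normalization and median centring of all 6 libraries, also brought it past the threshold (adjusted p = 0.0431 and 0.0304).

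The balance between both CTP synthases stayed within the spread of the libraries. CTPS1 gave 77.0%, 81.4% and 79.2% of their summed level per kilobase in DMSO and 79.1%, 79.7% and 80.5% in BRL-50481 libraries. The groups were interleaved (difference 0.53 percentage points, p = 0.8, exact two-sided permutation test). In contrast, the ratio of the enzyme at the end of the route to the enzyme at its start shifted. This shift follows from the rise of CTPS1 and the fall of CAD given above, each without overlap between the groups. The permutation test of this ratio is therefore no separate support. The log2 ratio of CTPS1 to CAD was −1.94, −1.67 and −1.74 in DMSO and −1.01, −1.06 and −0.96 in BRL-50481 libraries. All treated libraries were higher by more than the whole range of the DMSO libraries, with a difference of 0.77 (p = 0.1, the smallest p that the exact two-sided permutation test allows), and 0.69 without DMSO replicate 1. This ratio is formed within a library and is not moved by library scaling.

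**Figure D3:**
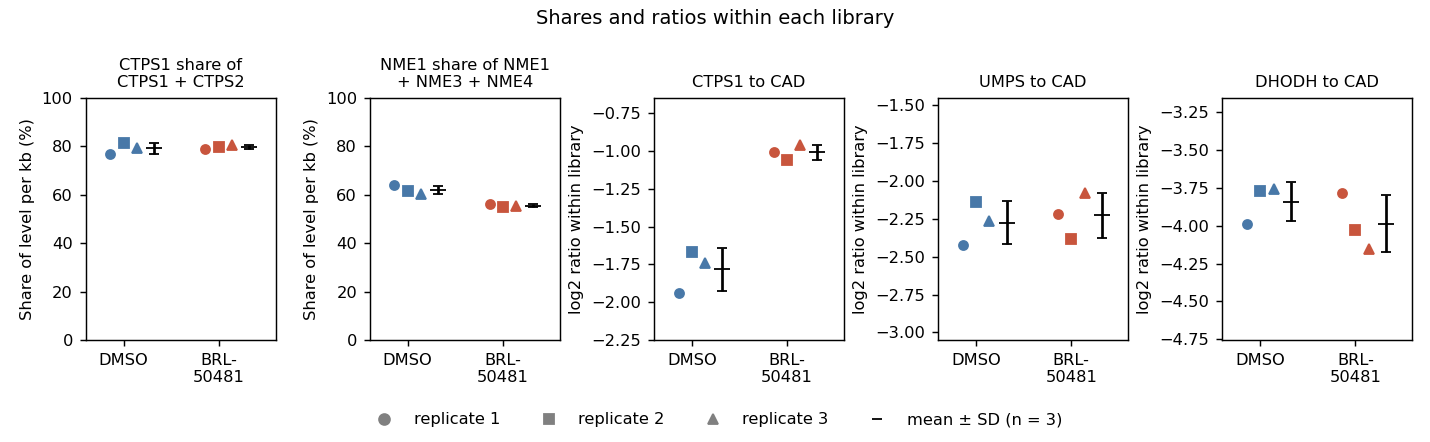
Isozyme shares (percent of summed normalized counts per kilobase) and log2 ratios within each library, one point per library, for DMSO and BRL-50481. The log2 ratio of CTPS1 to CAD and the NME1 share separate the groups, and the CTPS1 share and the ratios of UMPS and DHODH to CAD do not.

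Per kilobase of transcript, the levels of the 9 mRNAs in DMSO libraries spanned from 79.1 ± 2.66 normalized counts per kilobase for DHODH to 3529 ± 277 for NME1 (SD, n = 3). The order in DMSO was NME1, CMPK1, NME4, CAD, NME3, CTPS1, UMPS, CTPS2 and DHODH. Neighbours in this order were separated in all DMSO libraries except CAD (729 ± 46.0) and NME3 (706 ± 118), whose levels overlapped. In BRL-50481 libraries the order was CMPK1, NME1, NME4, CTPS1, NME3, CAD, CTPS2, UMPS and DHODH, with each neighbouring pair separated. CMPK1 at 2497 ± 60.9 then stood above NME1 at 1813 ± 32.4, but this change of order rests on the length used for NME1. Divided by the 472 bases that NME1 does not share with NME1-NME2, a choice made after seeing the data, its level was 6654 ± 523 in DMSO and 3419 ± 61.2 in BRL-50481 libraries and stood above CMPK1 in both groups. CTPS1 moved from below CAD to above it (543 ± 18.7 in DMSO and 642 ± 17.1 in BRL-50481, against 505 ± 23.0 for CAD in BRL-50481). CTPS2 likewise moved from below UMPS to above it, at 163 ± 4.14 against 118 ± 8.78 normalized counts per kilobase. The lengths are those of the annotated canonical transcripts, and another transcript in use would rescale a gene in both groups alike.

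**Figure D4:**
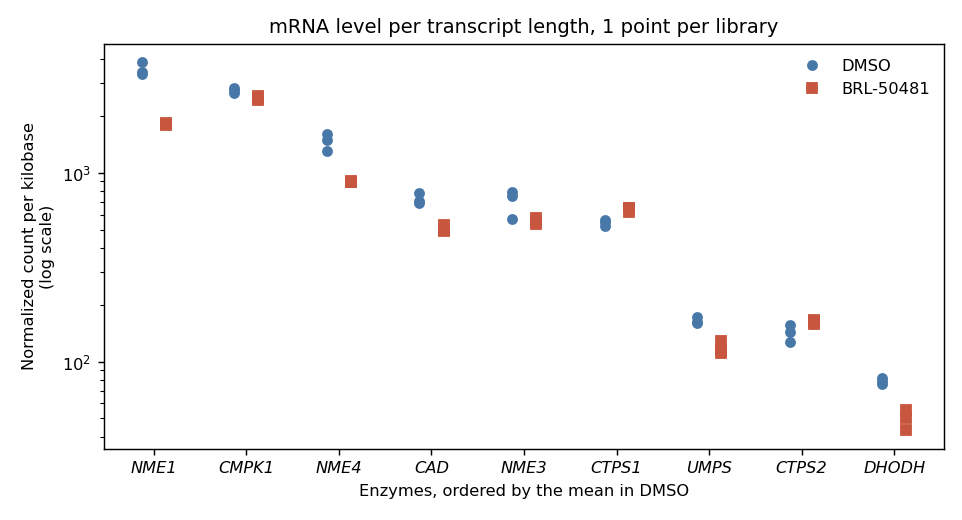
Normalized counts per kilobase of canonical transcript (log axis) of the 9 genes in the 6 libraries, with group means. CMPK1 stays near the top in both groups, NME1 per kilobase of its whole transcript drops below it in BRL-50481 libraries (but not per kilobase of its unshared bases), and CTPS1 lies below CAD in DMSO and above CAD in BRL-50481 libraries.

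Genes that supply the substrates of the route fell more often than they rose (7 lower, 2 higher and 3 not called of 12, median log2 fold change −0.38, beside 29.8% lower, 28.9% higher and a median of 0.0148 over all genes tested). SLC1A5, the main glutamine importer of many tumor cells, fell from 28526 ± 1100 to 17772 ± 537 normalized counts (log2 fold change −0.68, adjusted p = 8.24e-08). GLUL, which makes glutamine, fell by 0.61 (adjusted p = 4.66e-07). PRPS2, which makes the phosphoribosyl pyrophosphate that UMPS consumes and was picked out after its value was seen, fell by 0.61 (adjusted p = 4.77e-07). GOT1, the cytosolic aspartate aminotransferase, rose by 0.49 (adjusted p = 9.38e-06). SLC25A13, a mitochondrial carrier that exports aspartate, rose by 0.29 (adjusted p = 0.00114). GOT2, the mitochondrial aspartate aminotransferase, fell by 0.54 (adjusted p = 4.09e-07). SLC25A12, a carrier like SLC25A13, was not called (0.10, adjusted p = 0.279). GOT2 and SLC25A12 were added after their values were seen. The genes named here for aspartate metabolism and transport thus moved in both directions.

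DHODH hands its electrons to ubiquinone, and 7 of 11 genes of ubiquinone synthesis were called higher and 2 lower (median log2 fold change 0.30, beside 28.9% higher and 29.8% lower over all genes tested). COQ2, which attaches the polyprenyl tail to the ring, rose by 0.90 (adjusted p = 9.08e-07), and COQ7, a hydroxylase of the ring, rose by 0.83 (adjusted p = 1.53e-05). COQ8A, listed as ADCK3, fell by 0.47 (adjusted p = 1.59e-05), and PDSS1, which makes the tail, fell by 0.33 (adjusted p = 0.0162). Without DMSO replicate 1, PDSS1 was not called (−0.26, adjusted p = 0.0593), which left 1 gene called lower. The number called higher was 6 without DMSO replicate 1 or BRL-50481 replicate 3, and 5 without BRL-50481 replicate 2. With a variance model without trend it was also 6. A link between these changes and that of DHODH was not measured.

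Of 11 genes that use UTP or CTP, 4 were called higher and 3 lower (median log2 fold change 0.0345), shares close to the 28.9% and 29.8% of all genes tested. PCYT1A and PCYT2, the enzymes that consume CTP to make the activated heads of phosphatidylcholine and phosphatidylethanolamine, rose by 0.60 (adjusted p = 7.02e-05) and 0.57 (adjusted p = 1.44e-05). CHPT1 and SELENOI (listed as EPT1), which transfer these heads onto diacylglycerol at the end of the same pathways, fell by 0.46 (adjusted p = 8.31e-06) and 0.31 (adjusted p = 0.00341). These 4 are the highest and lowest of the list. CEPT1, another transferase of this kind, was at 0.022 (adjusted p = 0.762), and the CTP users CDS1 (−0.10, adjusted p = 0.331) and CMAS (0.093, adjusted p = 0.194) were not called. CDS2, another CTP user, was called higher (0.19, adjusted p = 0.0139, but up to 0.0934 when 1 library was left out). CEPT1, CDS1, CMAS and CDS2 were added after their values were seen.

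Among 9 genes known to act on CAD, by transcription or by phosphorylation, 5 were called higher and 3 lower (median log2 fold change 0.18, with the same shares of 28.9% and 29.8% as background). The count of genes called higher was 3 without any 1 library other than DMSO replicate 1. MYC, a transcription factor known to bind the CAD promoter, was at 26024, 28761 and 28138 normalized counts in DMSO and at 12098, 12446 and 12330 in BRL-50481 libraries. The groups were far apart (log2 fold change −1.17, SE 0.0477, adjusted p = 1.63e-09), and the change was larger than that of any of the 9 pathway genes. MAX, its partner, fell by 0.49 (adjusted p = 7.04e-06). MAPK3, a kinase known to phosphorylate CAD, rose by 0.30 (adjusted p = 0.00118). Whether any of these changes bears on CAD was not tested.

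Pyrimidine salvage moved mostly down as well, with 5 lower and 2 higher of 9 genes (median log2 fold change −0.22, beside 29.8% lower and 28.9% higher over all genes tested). UCK2, which phosphorylates uridine and cytidine, fell by 0.61 (adjusted p = 4.31e-07), and UPP1, which cleaves uridine, fell by 0.49 (adjusted p = 3.26e-05). TK2, the mitochondrial thymidine kinase, rose by 0.55 (adjusted p = 1.95e-05), and CDA, which deaminates cytidine, rose by 0.28 (adjusted p = 0.00136). In de novo purine synthesis, 7 of 11 genes were called lower and the other 4 were not called (median log2 fold change −0.40), against the same background. The number called lower was 6 without any 1 library other than DMSO replicate 1. It was 6 with DESeq2 on recovered reads and 10 with the length and GC correction. PPAT, the entry enzyme of that route, changed most among the genes named for it (−1.07, adjusted p = 3.41e-08), followed by IMPDH1 (−0.61, adjusted p = 5.72e-06). The highest called values of the list were those of PAICS (−0.40, adjusted p = 3.43e-06) and GART (−0.31, adjusted p = 6.6e-05), both of the route to IMP. The entry enzymes of the pyrimidine and purine routes, CAD and PPAT, were thus both lower.

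**Figure D5:**
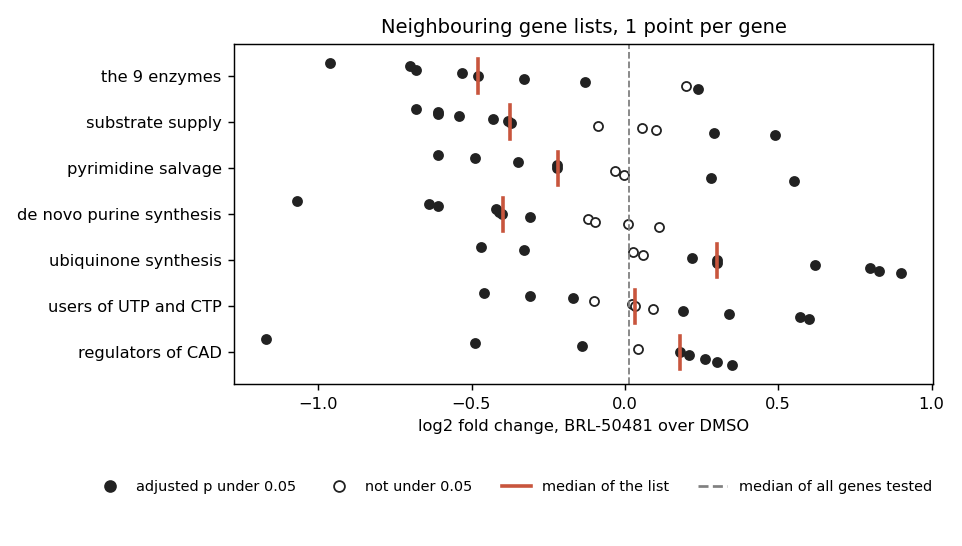
Log2 fold changes (BRL-50481 minus DMSO) of the genes of the pathway and of lists of neighbouring genes, one point per gene, with the list median. The lists are substrate supply, pyrimidine salvage, de novo purine synthesis, ubiquinone synthesis, users of UTP and CTP, and regulators of CAD. The medians of substrate supply (−0.38), pyrimidine salvage (−0.22) and de novo purine synthesis (−0.40) lie below 0, and that of ubiquinone synthesis (0.30) lies above 0.

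Across the 6 libraries, the pattern of the log2 level of CAD was most like those of PPRC1, IQSEC1 and FOXK1 among the 11455 genes that averaged 100 or more normalized counts (Pearson r of 0.999, 0.999 and 0.998). For DHODH, the closest patterns were those of RBMX, DCTN6 and FASTKD1 (0.998, 0.997 and 0.996), and for UMPS they were those of PCOLCE2, FAM105A and CDCA7 (0.998, 0.997 and 0.997). Such likeness was common, since 10.5%, 7.3% and 12.2% of these genes had an r above 0.95 with CAD, DHODH and UMPS. The 6 points share 2 treatment groups and library scaling, so that these values describe a common step between the groups and no test was made.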

How the data were processed

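RNA-seq of 6 libraries (3 DMSO, 3 BRL-50481) was read from 1 table and grouped by the labels. According to the methods and the submitters' processing notes, single-end reads (76 bases) were mapped by the authors on hg38 using STAR 2.7.1a. They counted reverse-strand reads per gene with htseq-count on the UCSC annotation, and normalized with DESeq2 1.28. RNA selection is given as oligo-dT in one place and as ribosomal depletion in another. The deposited signal is the normalized count: gene count divided by a size factor per library. It gave whole reads for all values (tolerance 0.001), so depth was recovered. The deposited log2 fold changes and errors, test scores and p-values are the authors' own comparison and were not used. The mean signal column that the authors deposited was not used either. No column of per-sample values was left unmapped.

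Genes at 4 or more normalized counts in 3 or more libraries were compared with limma 3.58.1 (lmFit, eBayes with trend) on log2(normalized count + 1) with Benjamini-Hochberg adjustment over all 15246 genes and a threshold of 0.05, under R 4.3.3. A log2 change so computed understates changes of low genes. Shares and ratios were compared with exact permutation tests. Alternatives were other pseudocounts, filters, scalings and variance models, edgeR 4.0.16 and DESeq2 1.42.0 on recovered reads, a replicate block, a length and GC correction and leaving out each library. Fits were tested on simulated data. Gene positions and lengths came from GENCODE 44. Length and GC content were matched for 15105 of the 15651 genes (14216 by symbol, 889 by an older symbol).

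The members and lists were chosen with earlier results of these data known. Named were the 9 genes, other nucleoside diphosphate kinases, MYC, PDE7A, the 2 highest and 2 lowest called genes of each list that averaged 100 or more normalized counts, and the 3 genes most like CAD, DHODH and UMPS. A gene that this rule names is not reported here. Intervals cover the spread between the libraries.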

Additional observations from a re-analysis of the deposited data

How the results depend on the processing

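CAD, DHODH, UMPS, NME1, NME4 and CTPS1 kept their direction and call under all 17 alternatives. CMPK1 lost its call with quantile normalization (−0.11, adjusted p = 0.0534), median centring (−0.097, adjusted p = 0.0928) and a variance model without trend (−0.13, adjusted p = 0.0714), and leaving out 1 library gave −0.15 to −0.11. NME3 lost it without the trend (−0.33, adjusted p = 0.0846), and leaving out 1 library gave −0.48 to −0.24. CTPS2 was called with quantile normalization (0.21, adjusted p = 0.0431) and median centring (0.23, adjusted p = 0.0304), and leaving out 1 library gave 0.12 to 0.27. The number of members called higher was therefore 2 under quantile normalization and median centring, and 1 to 2 when 1 library was left out. The number called lower was 5 to 7 over all alternatives. Of the regulators of CAD, 3 genes were called higher without the trend and with the length and GC correction. The log2 ratio of UMPS to CAD turned to −0.01 with the length and GC correction and ranged from −0.03 to 0.12 when 1 library was left out, and the CTPS1 share difference ranged from −0.57 to 1.63 percentage points. The cause of these changes was not tested.

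Pairing was checked on the deviations of log2 values from their group mean, over genes that averaged 50 or more normalized counts. In these deviations, same-numbered libraries correlated weakly (r of 0.121, 0.104 and 0.051), so that the numbers were not taken as pairs. By the same measure, BRL-50481 replicate 3 correlated best with DMSO replicate 2 (r of 0.061). With a replicate block, 7 members were lower and 1 higher, as without it, and 4440 genes were called higher and 4589 lower. Over all genes, edgeR called 4358 higher and 4574 lower and DESeq2 4097 and 4356. With quantile normalization or median centring, 1 gene of purine synthesis was called higher. Depth limits DHODH most, with 208 to 376 reads per library. With 3 libraries per group, exact permutation tests could not go below p = 0.1.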
